A study of Homo sapiens with 12 samples.

Results

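The mitochondrial ribosomal protein genes are described here in a pair of gastric cancer cell lines in which the zinc finger gene ZNF165 was knocked down or overexpressed. Members were the protein-coding genes whose symbol begins with MRPL or MRPS followed by a number, 78 of the 50868 gene identifiers in the count table. MRPL symbols stand for the large subunit and MRPS symbols for the small subunit, and 49 members had the first kind of symbol and 29 the second. By their place in the assembled particle, 51 members belong to the large subunit and 26 to the small one. MRPS30 and MRPS18A carry small-subunit symbols but sit in the large subunit, and MRPS36, also called KGD4, is a subunit of the oxoglutarate dehydrogenase complex.

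The mitochondrial ribosome translates the few messenger RNAs that the mitochondrial genome encodes, which are core subunits of the respiratory chain and the ATP synthase. Its RNAs are transcribed inside the mitochondrion, but its proteins are all encoded in the nucleus, translated in the cytosol and imported. Some of these proteins descend from bacterial ribosomal proteins, and others were added in the mitochondrial lineage. Of the members, 46 have a bacterial counterpart, 28 are mitochondrial additions and 4 were put in neither class.

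The 12 libraries were RNA-seq libraries from total RNA, 3 in each of 4 groups. MKN28 cells labelled ZNF165 knockdown had received a lentivirus with an siRNA, and their controls, with a wild-type genotype, a control lentivirus. MKN45 cells labelled ZNF165 overexpression had received a lentivirus carrying ZNF165, and their controls, also wild type, a control lentivirus. In the description field, ZNF166 and ZNF167 stand in place of ZNF165 for knockdown replicates 2 and 3, whereas the genotype field, which was used, has ZNF165 for all 3. Whether replicates were separate cultures is not given in the sources used here, so the p-values measure the spread between libraries, which may be technical.

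Library totals ranged from 12075813 to 19548445 counts. ZNF165 had 74, 40 and 22 counts in knockdown libraries, against 262, 186 and 287 in MKN28 controls, and 2115, 1977 and 1909 counts in overexpressing libraries, against 156, 140 and 277 in MKN45 controls. Its knockdown log2 fold change was -1.47 ± 0.53 (SE, adjusted p = 0.0459, edgeR quasi-likelihood test), a call lost in 12 of 17 alternatives, among them every one that leaves out 1 library other than knockdown replicate 1. With the trend of each library with length and GC content taken out, the value was -0.38 (adjusted p = 0.467). Knockdown replicate 1 stood apart from replicates 2 and 3: its Pearson correlations with them across genes were 0.897 and 0.904 on log2 CPM, counts scaled to library size, against 0.959 between replicates 2 and 3. The summed level of 6 epithelial markers, of which the keratin KRT8 had the highest mean in every group, was 14450 to 39270 CPM in knockdown libraries, against 7143 to 7721 in their controls, and 4475 to 7349 in overexpressing libraries, against 4903 to 9017 in theirs. Within that list KRT8, KRT18, KRT19 and CLDN4 had higher means in knockdown libraries, while CDH1 averaged 58.1 CPM in knockdown libraries and 397 in MKN28 controls, and EPCAM 363.5 in knockdown libraries and 547.5 in controls. Markers of blood summed to at most 0.321 and markers of endothelium to at most 2.1 CPM in any library, while 4 fibroblast markers, nearly all of it COL1A1, summed to 27.2 to 44.8 in knockdown libraries, against 89.0 to 122 in MKN28 controls.

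All 78 members had counts in every library, the lowest being 25, and all were tested in every comparison. They lie on 21 chromosomes. Their transcripts are short: the median length was 1033.5 bases, against 1762.25 bases for all coding genes of the GENCODE 29 annotation (GRCh38). Exons of 41 members overlap exons of another gene, 16 on the same strand and 29 on the opposite strand, and reads of such pairs cannot be told apart here. Of 72 annotated pseudogenes of members in the table, 23 had any count. MRPS31P5 and MRPS31P4 were the exceptions to low counts among them, with 36.9% and 15.3% of the total reads of MRPS31, so the values of MRPS31 are uncertain.

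Promoter sequences are shown for 3 genes on which the results below turn: MRPL54, the member with the largest rise in the knockdown; MRPS27, the only member that fell there; and MRPL46, which shares a divergent promoter region with MRPS11, another member. RefSeq windows of 300 bases (250 before the start and 50 from it on, GRCh38.p14) were matched by symbol for 69 members, 85 windows in all because some genes have several starts. Capitals mark letters searched on both strands, given 5′ to 3′ on the gene's own strand. The MRPL54 window is chr19:3762432-3762731 (plus strand), the MRPS27 window chr5:72320191-72320490 (minus strand) and the MRPL46 window chr15:88467339-88467638 (minus strand).
MRPL54: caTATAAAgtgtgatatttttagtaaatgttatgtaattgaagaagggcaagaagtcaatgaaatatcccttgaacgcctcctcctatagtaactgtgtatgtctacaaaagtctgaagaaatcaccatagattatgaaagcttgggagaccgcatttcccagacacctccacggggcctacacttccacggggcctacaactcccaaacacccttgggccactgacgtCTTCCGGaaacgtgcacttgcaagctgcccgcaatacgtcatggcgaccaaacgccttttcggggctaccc
MRPS27: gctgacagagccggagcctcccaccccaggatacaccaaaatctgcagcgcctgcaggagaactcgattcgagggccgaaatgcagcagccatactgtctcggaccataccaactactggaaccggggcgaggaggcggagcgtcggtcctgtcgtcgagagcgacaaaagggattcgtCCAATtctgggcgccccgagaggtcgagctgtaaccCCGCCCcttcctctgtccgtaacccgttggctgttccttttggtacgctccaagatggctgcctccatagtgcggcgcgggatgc
MRPL46: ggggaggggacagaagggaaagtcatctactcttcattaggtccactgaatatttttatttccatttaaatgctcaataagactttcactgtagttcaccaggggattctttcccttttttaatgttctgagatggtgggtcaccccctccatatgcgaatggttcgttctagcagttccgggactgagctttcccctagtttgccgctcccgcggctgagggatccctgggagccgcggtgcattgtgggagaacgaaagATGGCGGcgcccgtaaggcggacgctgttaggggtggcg

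In the MRPL54 window the capitals are a TATAAA match at the far upstream end and a match to the ETS letters CCGGAAG on the reverse strand. In the MRPS27 window they are a CCAAT match and a match to the SP letters GGGCGG on the reverse strand. In the MRPL46 window they are a single match to the YY1 letters ATGGCGG just after the start. The ETS letters were in 38.8% of member windows, against 12.8% of the 22199 windows of all coding genes, and the YY1 letters in 29.4%, against 6.99%. The SP letters were in 60% of member windows, against 56.3%, and CCAAT in 32.9%, against 34.7%. TATAAA was in 3.53%, against 9.47%. The NRF1 motif was in 11.8% of member windows, against 7.39%. None of the searched strings contains another, and a match describes letters in a window only.

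The response to the knockdown, given in full below, was counted for matched members with and without these letters. Of the 30 members with the ETS letters 18 rose, with a median log2 fold change of 1.80, and of the 39 matched members without them 21 rose, with a median of 1.42. Of the 24 members with the YY1 letters 12 rose, with a median of 1.16, and of the 45 without them 27 rose, with a median of 1.75. With the SP letters 22 of 42 rose, against 17 of 27 without them. With CCAAT 11 of 23 rose, against 28 of 46 without it. With the NRF1 motif 5 of 9 rose, against 34 of 60, and with TATAAA 2 of 3, against 37 of 66. Among all genes tested 19.2% rose. These splits are descriptions and were not tested.

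Levels between genes were compared as reads scaled to transcript length and to library size times a TMM scaling factor over all 12 libraries (RPKM). In the fit of all 12 libraries such factors were 0.917, 0.491 and 0.605 for knockdown libraries and 1.24, 1.06 and 1.28 for MKN28 controls. A lower factor gives a higher RPKM, so differences between groups include this scaling. The median member had 111 RPKM in knockdown libraries, against 39.7 in MKN28 controls, and 35.2 in overexpressing libraries, against 48.8 in MKN45 controls. Levels spread widely within a group: in MKN28 controls the members ranged from 9.18 RPKM for MRPL22, a protein of the exit tunnel, to 186 RPKM for MRPL49, a mitochondrial addition to the large subunit. Over all 12 libraries MRPL28, MRPL49 and MRPL51, all of the large subunit, had the highest means at 346, 329 and 260.2 RPKM, and MRPL50 had the lowest at 9.15 RPKM. This order depends on the length used, a median over annotated transcripts. It was 3098.5 bases for MRPL22 and 3332 for MRPL50, against 518 for MRPL49 and 501 for MRPL51.

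The top ranks moved between groups. MRPL51 averaged 469 ± 198 RPKM in knockdown libraries and 185 ± 25.4 RPKM in MKN28 controls (SD, n = 3 each). It averaged 155 ± 25 RPKM in overexpressing libraries and 232 ± 37.2 RPKM in MKN45 controls, where it ranked first in both groups. MRPL28 averaged 1108 ± 723 RPKM in knockdown libraries and 133 ± 45.2 RPKM in MKN28 controls, with ranks of 1 and 3, and had rank 24 in overexpressing libraries and 16 in MKN45 controls. The bottom of the order was steadier: MRPS36, MRPS14 and MRPL50 were among the 6 lowest members in all 4 groups.

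The 78 genes together took a larger share of all counts in the knockdown. They held 0.802%, 0.944% and 0.979% of the counts in knockdown libraries, against 0.413%, 0.495% and 0.452% in MKN28 controls, means of 0.908 ± 0.0939% and 0.453 ± 0.0409% (SD, n = 3 each), a ratio of 2.00. In MKN45 they held 0.426%, 0.404% and 0.407% in overexpressing libraries, against 0.477%, 0.581% and 0.513% in controls, means of 0.412 ± 0.0122% and 0.524 ± 0.0524%, a ratio of 0.787. The groups did not overlap in either line. The proteins that the ribosome itself makes are encoded by mitochondrial DNA, and their messages held 3.10 ± 1.07% of counts in knockdown libraries and 5.11 ± 0.614% in MKN28 controls, without overlap. They held 10.2 ± 1.06% in overexpressing libraries and 8.59 ± 2.30% in MKN45 controls, where the groups overlapped. In bulk RNA, more RNA per cell and more cells with that RNA cannot be told apart.

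**Figure D1:**
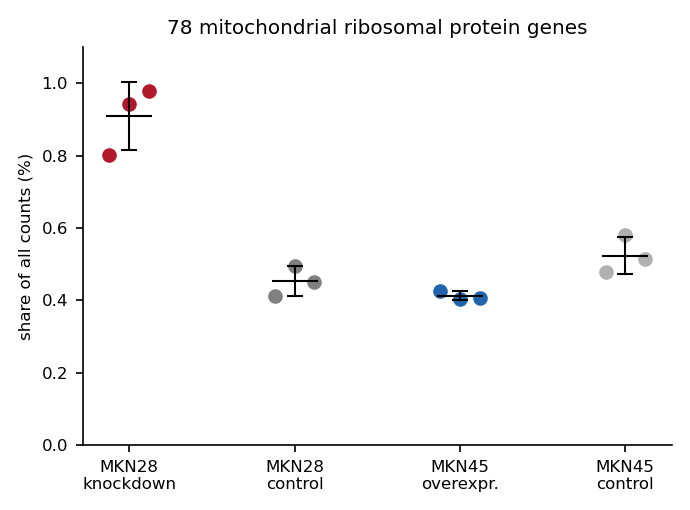
Share of all counts (%) held by the 78 mitochondrial ribosomal protein genes in each library (points), with the mean and SD of the 3 libraries of each group (bars). Knockdown libraries lie at 0.802% to 0.979%, above all MKN28 controls, and overexpressing libraries at 0.404% to 0.426%, below all MKN45 controls.

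In the knockdown, 43 of the 78 members rose and 1 fell, while 34 missed the threshold (quasi-likelihood test in edgeR, p adjusted by Benjamini-Hochberg over 14939 genes, threshold 0.05). Among all genes tested 19.2% rose and 21.6% fell. The median log2 fold change of the members was 1.58, against -0.20 for all genes tested, and 61 members had a positive value. The groups did not overlap for 46 members that were higher in every knockdown library, against 23.5% of all genes, and for 1 that was lower, against 30.3%. The large subunit had 31 of 51 members up and none down, with a median of 1.93, and the small subunit 12 of 26 up and 1 down, with a median of 1.16. Proteins with a bacterial counterpart rose in 27 of 46 cases (median 1.62) and mitochondrial additions in 13 of 28 with 1 lower (median 1.13).

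The count depended on libraries and scaling. It was 18 without control replicate 1, where 6.67% of all genes rose, and 23 without control replicate 3, where 8.37% did. It was 24 with library totals as the only scaling, where 8.77% of genes rose, the members' median was 0.87 and that of all genes -0.92. Without knockdown replicate 1, 49 members rose, against 28.3% of genes, and 15 fell, against 37.5%. With all libraries but without the trend of each library with transcript length and GC content, 54 rose and none fell, with a background of 26.8% higher and 19.9% lower and medians of 1.22 for the members and 0.11 for all genes. Of these 54, 41 were among the 43. The summed epithelial markers, carried mostly by KRT8, were also higher in every knockdown library than in every control, with CDH1 and EPCAM lower on average, and their part in the result was not tested.

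**Figure D2:**
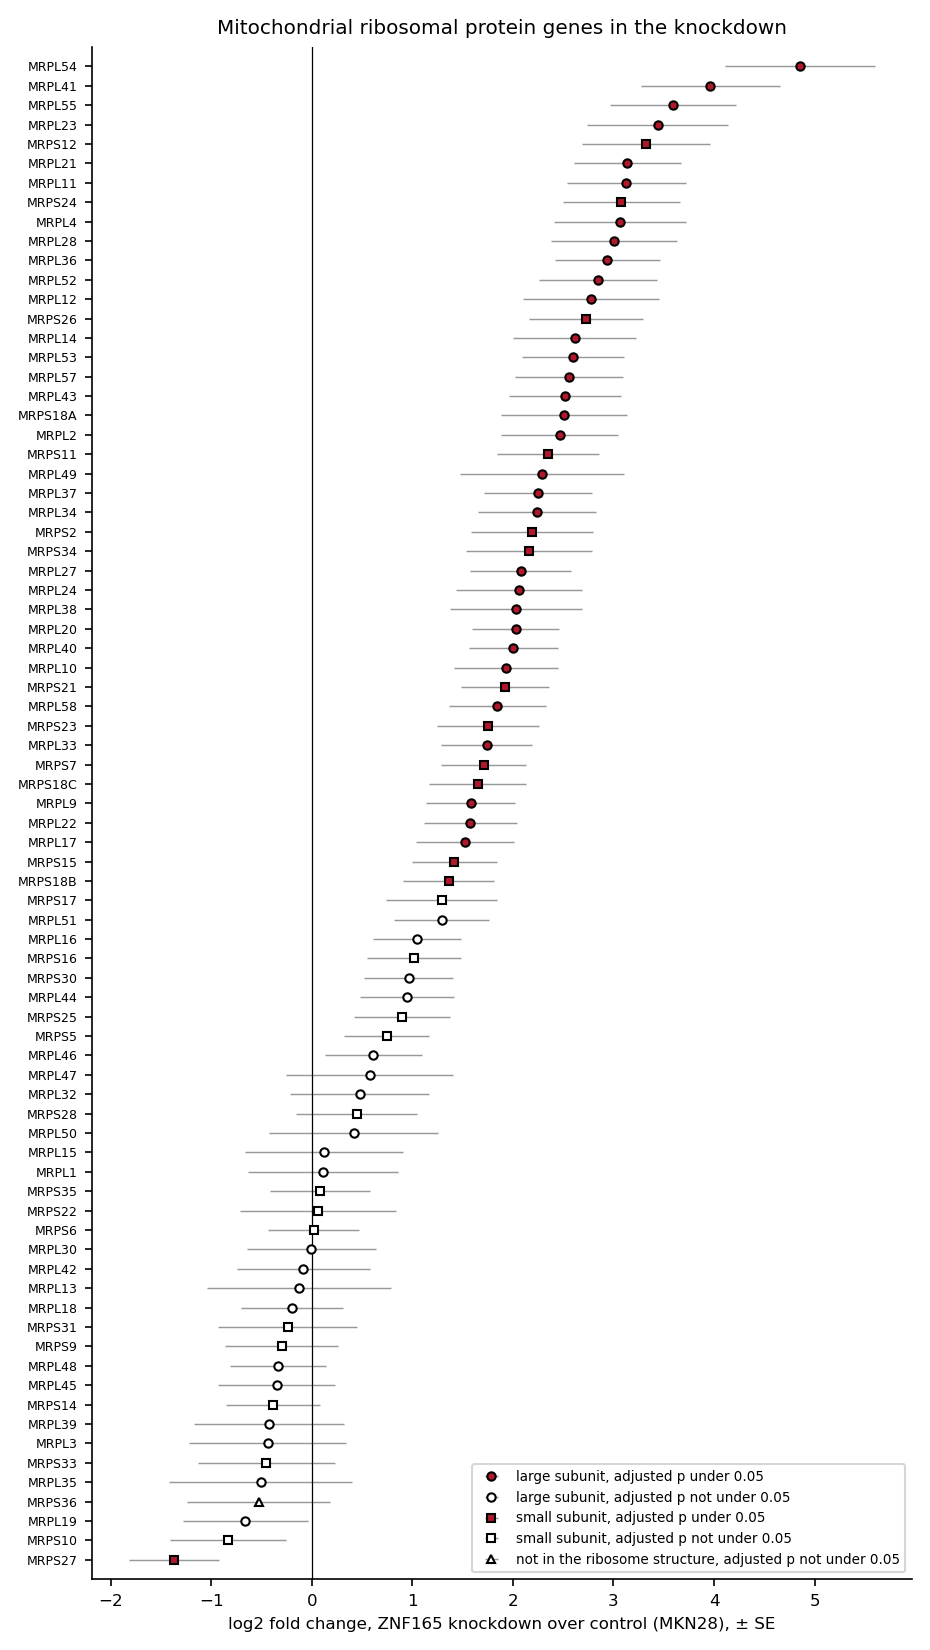
Log2 fold change of knockdown over control in MKN28 for each of the 78 members, sorted, with bars for its standard error; filled symbols passed an adjusted p of 0.05, circles are large-subunit and squares small-subunit proteins, and the triangle is MRPS36. Values run from -1.37 for MRPS27 to 4.85 for MRPL54, and 61 members lie above 0.

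The largest rises were in the large subunit. MRPL54, a mitochondrial addition, had 67.8, 513 and 285 CPM (scaled by TMM factors within the comparison) in knockdown libraries, against 7.61, 11.8 and 10.5 in controls, a log2 fold change of 4.85 ± 0.74 (SE, adjusted p = 0.00367). MRPL41, another mitochondrial addition, had 142, 826 and 517 CPM in knockdown libraries, against 24.5, 45 and 25.5 in controls (log2 fold change 3.96 ± 0.69, adjusted p = 0.00379). In both genes every knockdown library was above every control and replicate 1 was the lowest of the knockdown libraries. MRPL55, which corresponds to bacterial protein bL31, had 59.6, 244 and 168 CPM in knockdown libraries, against 9.84, 18.9 and 10.3 in controls (log2 fold change 3.59 ± 0.62, adjusted p = 0.00385). MRPL23, a counterpart of a bacterial exit-tunnel protein, had 20.4, 108 and 72.2 CPM in knockdown libraries, against 4.38, 9.75 and 4.29 in controls (log2 fold change 3.44 ± 0.70, adjusted p = 0.00545). The order of the libraries was again the same, with replicate 2 highest and replicate 1 lowest and no overlap with controls. MRPL23 shares exons with an antisense RNA. All 4 genes passed the test in every one of 17 alternatives, MRPL23 with an adjusted p of up to 0.0497.

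Messages of MRPL12, MRPL11 and MRPL58, singled out for the known roles of their proteins, rose as well. MRPL12, the stalk protein that recruits translation factors, had 154, 1079 and 622 CPM in knockdown libraries, against 75.2, 124 and 72.0 in controls (log2 fold change 2.77 ± 0.68, adjusted p = 0.0103). MRPL11, at the base of the stalk, had 213, 853 and 646 CPM in knockdown libraries, against 58.6, 84.6 and 52.3 in controls (log2 fold change 3.13 ± 0.59, adjusted p = 0.00458). Neither gene's groups overlapped. The call of MRPL12 was lost when control replicate 1, control replicate 3 or both knockdown replicates 2 and 3 were left out (adjusted p up to 0.253). MRPL58, a peptidyl-tRNA hydrolase built into the large subunit, had 59.7, 89.4 and 132 CPM in knockdown libraries, against 23.1, 31.8 and 23.0 in controls (log2 fold change 1.85 ± 0.48, adjusted p = 0.0131). Its call was lost in 5 of 17 alternatives, at the highest with an adjusted p of 0.0955.

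MRPL36 and MRPL33, counterparts of bacterial large-subunit proteins, also rose. MRPL36 had 65.8, 67.5 and 90.6 CPM in knockdown libraries, against 5.42, 13.5 and 10.3 in controls (log2 fold change 2.94 ± 0.52, adjusted p = 0.00404), and its knockdown libraries were closer together than those of MRPL54. MRPL33 had 121, 89.0 and 86.5 CPM in knockdown libraries, against 24.0, 39.0 and 25.9 in controls (log2 fold change 1.74 ± 0.45, adjusted p = 0.0132). Replicate 1 was the highest library for MRPL33, and no group overlapped in either gene. MRPL33 shares exons with BABAM2 on the same strand, and its call was lost in 4 of 17 alternatives (adjusted p up to 0.126). MRPL17 had the smallest rise of the large subunit and lost its call in 7 of 17 alternatives, with 83.6, 101 and 145 CPM in knockdown libraries, against 31.6, 56.1 and 27.0 in controls (log2 fold change 1.52 ± 0.48, adjusted p = 0.0293).

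The most abundant members differed from each other. MRPL28 had 238, 1223 and 816 CPM in knockdown libraries, against 82.8, 125 and 76.2 in controls (log2 fold change 3.01 ± 0.63, adjusted p = 0.00599). MRPL51 had 279, 107 and 224 CPM in knockdown libraries, against 73.9, 89.8 and 85.6 in controls (log2 fold change 1.29 ± 0.48, adjusted p = 0.0502), so it did not pass although its groups did not overlap. MRPL49 had 61.2, 225 and 979.8 CPM in knockdown libraries, against 88.2, 89.3 and 80.9 in controls (log2 fold change 2.29 ± 0.82, adjusted p = 0.0446). Its replicate 1 lay below all controls and replicate 3 far above them. Without replicates 2 and 3 its log2 fold change was -0.46, and its adjusted p ran up to 0.856 over the alternatives. MRPL49 overlaps exons of FAU and SYVN1 on the opposite strand.

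Members of the large subunit with unusual histories gave a mixed picture. MRPS18A, a relative of bacterial S18 that sits in the large subunit, had 121, 630.3 and 383 CPM in knockdown libraries, against 49.7, 96.5 and 53.3 in controls (log2 fold change 2.51 ± 0.63, adjusted p = 0.0116). Its call was lost in the same settings as that of MRPL12. MRPS30 had 130.4, 69.6 and 101 CPM in knockdown libraries, against 43.6, 53.7 and 56.9 in controls (log2 fold change 0.97 ± 0.44, adjusted p = 0.101). MRPL44, which carries a ribonuclease III fold, had 163, 71.7 and 101 CPM in knockdown libraries, against 46.8, 62.3 and 65.1 in controls (log2 fold change 0.95 ± 0.47, adjusted p = 0.123). MRPS30 and MRPL44 did not pass, yet all their knockdown libraries were above all controls, replicate 1 being the highest and replicate 2 the lowest.

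In the small subunit, MRPS12 of the decoding centre had 123, 602 and 383 CPM in knockdown libraries, against 26.3, 50.6 and 33.5 in controls (log2 fold change 3.33 ± 0.63, adjusted p = 0.00471). It passed in all 17 alternatives, and it shares exons with SARS2 on the opposite strand. MRPS18C, the closest relative of bacterial S18, had 158, 62.3 and 110.0 CPM in knockdown libraries, against 30.9, 35.4 and 39.1 in controls (log2 fold change 1.65 ± 0.48, adjusted p = 0.0210). MRPS18B, the other small-subunit relative, had 147, 243 and 258 CPM in knockdown libraries, against 68.2, 111 and 73.8 in controls (log2 fold change 1.36 ± 0.45, adjusted p = 0.0352). Neither gene's groups overlapped. MRPS15 had 184, 134 and 163 CPM in knockdown libraries, against 49.6, 70.9 and 59.7 in controls (log2 fold change 1.42 ± 0.42, adjusted p = 0.0231). The calls of MRPS18C, MRPS18B and MRPS15 were lost in 5, 7 and 5 of 17 alternatives, with adjusted p-values of up to 0.197, 0.274 and 0.234.

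MRPS27, a pentatricopeptide-repeat protein of the small subunit, was the only member that fell. It had 22.6, 16.9 and 25.5 CPM in knockdown libraries, against 52.9, 63.5 and 51.2 in controls (log2 fold change -1.37 ± 0.45, adjusted p = 0.033). All 3 knockdown libraries were below all controls. The call was lost in 10 of 17 alternatives, among them every one that leaves out 1 library other than knockdown replicate 1 and those that remove the GC trend, and its adjusted p ran up to 0.739. MRPS36, the member outside the ribosome, had 19.6, 3.95 and 2.86 CPM in knockdown libraries, against 12, 12.4 and 13.9 in controls (log2 fold change -0.53 ± 0.71, adjusted p = 0.573). Its replicate 1 was above and its replicates 2 and 3 were below all controls.

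**Figure D3:**
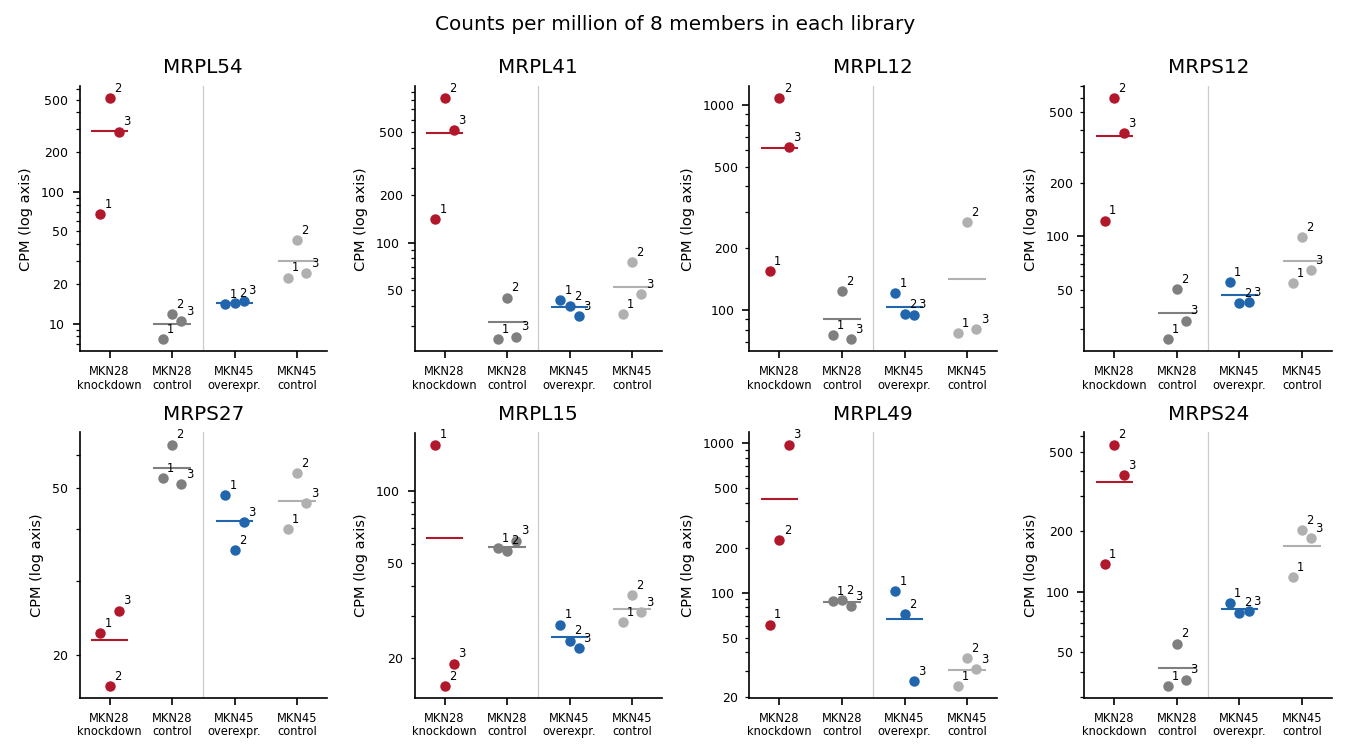
CPM (log axis, scaled within each cell line) of 8 members in the 3 libraries of each group; numbers are replicate numbers and lines are group means. The knockdown libraries of MRPL54, MRPL41, MRPL12, MRPS12 and MRPS24 lie above their controls with replicate 1 lowest, those of MRPS27 lie below, and MRPL15 and MRPL49 are split between replicates.

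The split seen in MRPS36 was shared by other members. In 17 of the 78, knockdown replicate 1 lay above all MKN28 controls while replicates 2 and 3 lay below all of them, a pattern of 7.03% of the genes tested. MRPL15 was one, with 158 CPM in replicate 1, 15.2 in replicate 2 and 18.9 in replicate 3, against 57.6, 56.3 and 62.1 in controls. MRPL13 was another, with 174 CPM in replicate 1, 13.0 in replicate 2 and 9.38 in replicate 3, against 74.4, 58.2 and 83.1 in controls. Neither passed the test, with log2 fold changes of 0.12 ± 0.79 for MRPL15 (adjusted p = 0.911) and -0.13 ± 0.92 for MRPL13 (adjusted p = 0.92). MRPL3, MRPL19, MRPL30, MRPL35, MRPL39, MRPL42, MRPL45, MRPL47, MRPL50, MRPS9, MRPS22, MRPS28, MRPS31, MRPS33 and MRPS36 were the other 15. Apart from MRPS36, these genes are named here for this pattern, after their values were seen. The opposite pattern was found in 1 member, against 2.3% of genes.

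The members lay further apart in replicates 2 and 3 than in replicate 1. The SD over members of the log2 difference from the control mean was 0.719 in replicate 1, 2.04 in replicate 2 and 2.01 in replicate 3, and 0.176 to 0.341 in the controls themselves. In replicate 1, 74 members lay above the control mean, in replicate 2 51 and in replicate 3 54. The median differences were alike all the same, at 1.22, 1.27 and 1.64 in replicates 1, 2 and 3. For all genes tested the medians in these libraries were -0.04, -0.38 and -0.41.

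The rise followed GC content. The 17 split members had transcripts of 35.0% to 46.6% GC. Of the 26 members with the lowest GC content (35.0% to 46.4%), 3 rose and 1 fell, with a median log2 fold change of -0.11, of the middle 26 (46.5% to 54.1%) 14 rose, with a median of 1.39, and of the 26 highest (54.1% to 71.9%) all 26 rose, with a median of 2.56. Genes of the same GC ranges over the whole table had medians of -1.37, -0.13 and 0.95, and 4.14%, 17.5% and 34.7% of them rose, so each set of 26 members had a higher median than the genes of its range. Across the 78 members the fold change and GC content had a Spearman correlation of 0.809 and a Pearson correlation of 0.792, and across 14864 genes the Spearman correlation was 0.509. These are descriptions across genes that share the same 6 libraries.

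The trend was that of replicates 2 and 3. The highest-GC set lay 1.34, 3.22 and 2.81 above the control mean on the log2 scale in knockdown replicates 1, 2 and 3, and the lowest-GC set lay 0.96 above it in replicate 1 and below it, at -0.94 and -1.49, in replicates 2 and 3. Control replicate 2 stood 0.51 above the mean of its group in the highest set. The Spearman correlation of a gene's CPM with its GC content was taken over the protein-coding genes with any count in that library. It was 0.039, 0.32 and 0.307 in knockdown replicates 1, 2 and 3, and -0.122 to 0.052 in MKN28 controls.

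**Figure D4:**
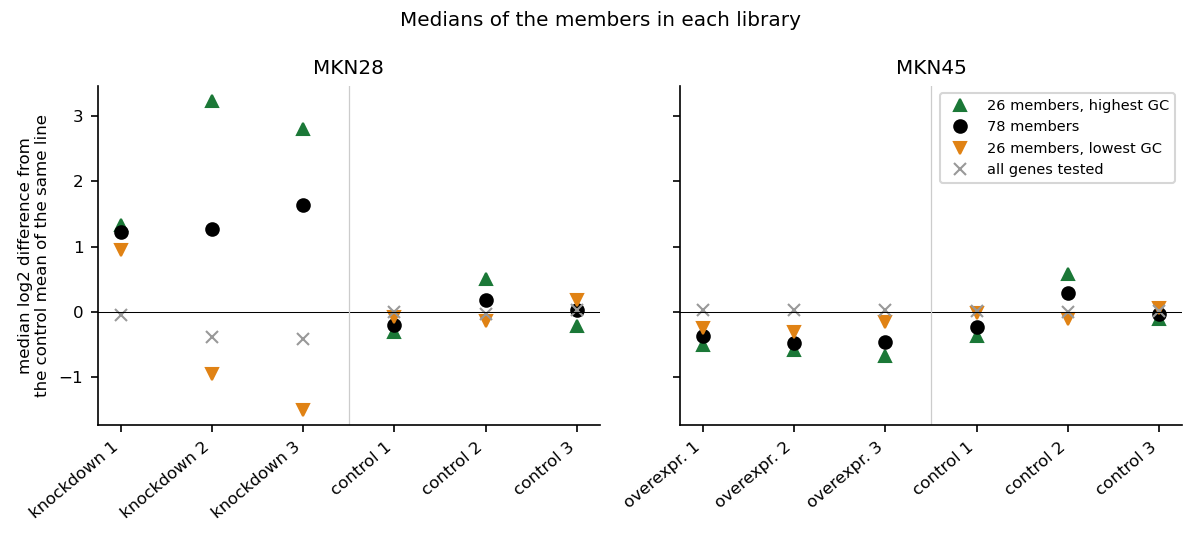
Median log2 difference from the control mean of the same line, in each library, for the 26 members of highest GC content, all 78 members, the 26 of lowest GC content and all genes tested. In knockdown replicate 1 both sets lie near 1, at 1.34 and 0.96, whereas in replicates 2 and 3 the highest set lies at 3.22 and 2.81 and the lowest at -0.94 and -1.49.

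Once trends with length and GC content were taken out, the members' fold change no longer followed GC content closely (Spearman correlation 0.223). The lowest set then had 13 of 26 members up, with a median of 0.86, the middle set 17 with 1.05, and the highest set 24 with 1.52. Among all genes in this fit 26.8% rose, with a median of 0.11, and shares for genes of the same GC ranges were not counted. MRPL22, named after its values were seen, rose most in this fit, by 3.99 on the log2 scale (adjusted p = 0.000442), against 1.58 ± 0.46 in the fit without the correction (adjusted p = 0.0213). The corrected value depends on the length and GC content used for it, 3098.5 bases and 40.3%, medians over annotated transcripts. Its unscaled counts were 1661, 598 and 547 in knockdown libraries, against 525, 638 and 640 in controls. MRPL54 rose by 2.98 (adjusted p = 0.000521) and MRPL41 by 2.61 (adjusted p = 0.000497). MRPS27 had -0.57 and did not pass (adjusted p = 0.255).

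**Figure D5:**
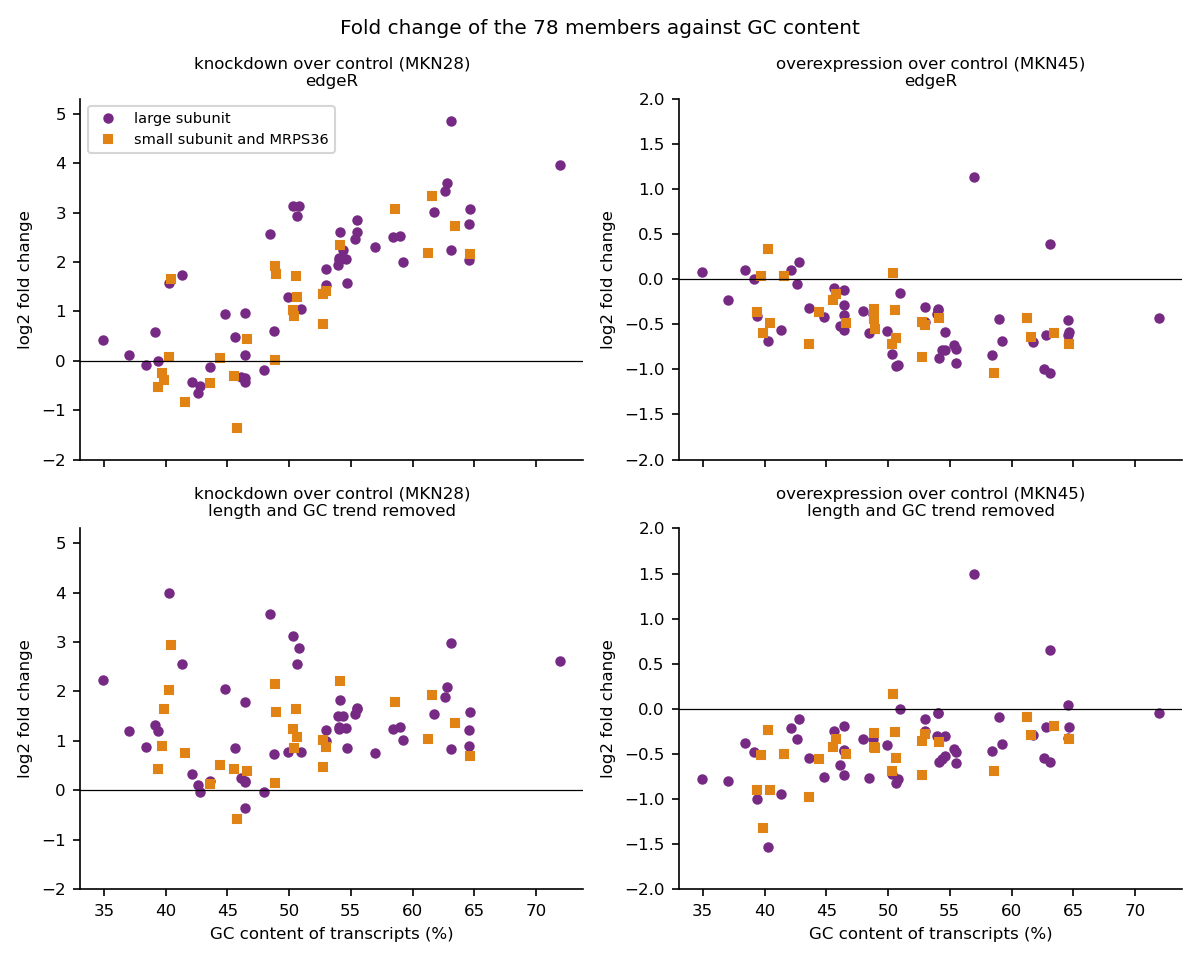
Log2 fold change of each member against the GC content of its transcripts (%), large-subunit proteins as circles and the others as squares, for the knockdown (left column) and the overexpression (right column), by the edgeR fit (top) and with the length and GC trend of each library removed (bottom). The Spearman correlation of the knockdown values is 0.809 at the top and 0.223 at the bottom, and that of the overexpression values -0.498 and 0.466.

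The divergent neighbours of members were looked at next. A coding gene starts within 1000 bases of 29 members on the opposite strand, and in 28 of these pairs both genes were tested. In 14 pairs the member rose and the neighbour did not pass, in 5 both rose, and in 1, MRPS27 with PTCD2, both fell. In 5 pairs neither passed, in 2 only the neighbour fell and in 1 only the neighbour rose, against 19.2% of all genes that rose and 21.6% that fell. A call in one gene and none in the other is no test of their difference. MRPS11 and MRPL46, whose RefSeq starts are 320 bases apart and whose pair is counted from both sides, gave log2 fold changes of 2.35 ± 0.50 (adjusted p = 0.00656) and 0.61 ± 0.48 (adjusted p = 0.329). MRPL41 and PNPLA7, a lysophospholipase gene, gave 3.96 and -1.48 (adjusted p = 0.0754). MRPL36 and NDUFS6, a complex I subunit, both rose, by 2.94 and 2.89. PTCD2, whose log2 fold change was -2.21 (adjusted p = 0.0384), overlaps exons of MRPS27 on the opposite strand.

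Among other genes of mitochondrial translation, the lists are set beside the 19.2% of all genes that rose and the 21.6% that fell. In translation factors, synthetases and RNA handling the shares called were near or below these. Of 5 ribosomal proteins with other symbols, GADD45GIP1 rose by 3.92 ± 0.67 on the log2 scale (adjusted p = 0.00379) and AURKAIP1 by 3.50 ± 0.63 (adjusted p = 0.00412), while PTCD3 fell by 2.80 on that scale (adjusted p = 0.00759), and DAP3 and CHCHD1 did not pass. Of 30 assembly factors 14 rose and 3 fell, with a median of 1.28; the helicase DDX28 had 177 ± 88.1 CPM in knockdown libraries and 14.3 ± 2.70 in controls (SD, n = 3 each), a log2 fold change of 3.63 and the largest of that list. The 3 that fell were FASTKD2, METTL15 and MTERF3. Of 17 translation factors 4 rose and 4 fell, with a median of -0.50. TACO1, an activator of cytochrome oxidase translation, rose by 3.17 ± 0.56 (adjusted p = 0.00403), and LRPPRC, which stabilises mitochondrial messages, fell by 3.4 (adjusted p = 0.00407). Of 20 aminoacyl-tRNA synthetase genes 3 rose and 2 fell (median -0.15), with 1.86 ± 0.62 for SARS2 (adjusted p = 0.0361) the largest rise. Of 24 tested genes of mitochondrial transcription and RNA handling 3 rose and 3 fell (median -0.13), with 3.16 for HSD17B10, a subunit of the mitochondrial RNase P (adjusted p = 0.00456), and -2.94 for POLG2, a subunit of the mitochondrial DNA polymerase (adjusted p = 0.00842), at the ends.

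In MKN45, none of the 78 members passed the test in either direction with ZNF165 overexpression (edgeR quasi-likelihood test). The background was 0.935% of 15833 genes higher and 0.196% lower. An unadjusted p under 0.05 was found for 29 members, and for 4242 of the 15833 genes. Most members lay below their controls: 67 had a negative and 11 a positive log2 fold change, with a median of -0.46, against -0.0022 for all genes. The groups did not overlap for 38 members that were lower in every overexpressing library, against 18.7% of genes, and for none that were higher, against 19.4%. DESeq2 called 8 lower, where it called 5.03% of genes lower and 6.56% higher, the fit with the length and GC trend removed 11 lower against a background of 4.55%, and neither called any member higher, against 4.15% of genes in the second of these fits. The 11 were MRPL11, MRPL21, MRPL22, MRPL30, MRPL45, MRPL50, MRPS18B, MRPS18C, MRPS22, MRPS24 and MRPS33, with trend-removed log2 fold changes of -0.56 to -1.54. MRPL50, for which a length of 3332 bases was used, was slightly positive, at 0.08, before the trend was removed.

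MRPL49, at the upper end, had 102, 72.0 and 25.6 CPM in overexpressing libraries, against 23.8, 36.4 and 30.8 in controls (log2 fold change 1.14 ± 0.44, adjusted p = 0.147). Replicates 1 and 2 lay above all controls and replicate 3 among them. MRPL34, next to it, had 20.4, 17.3 and 18.8 CPM in overexpressing libraries, against 16.6, 6.2 and 20.2 in controls (log2 fold change 0.39 ± 0.38, adjusted p = 0.528), and control replicate 2 alone was low. At the lower end, MRPL54 had 14.0, 14.3 and 15 CPM in overexpressing libraries, against 22.4, 42.9 and 24.1 in controls (log2 fold change -1.04 ± 0.29, adjusted p = 0.0824). MRPS24, which corresponds to bacterial S3 at the messenger entry, had 87.7, 78.7 and 79.8 CPM in overexpressing libraries, against 119 (replicate 1), 203 (replicate 2) and 185 (replicate 3) in controls (log2 fold change -1.04 ± 0.25, adjusted p = 0.0625). Both genes were without overlap, and the overexpressing libraries were close together. The adjusted p of MRPL54 ran from 0.0184 to 0.544 over 16 alternatives and that of MRPS24 from 0.006 to 0.489.

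The large subunit had a median of -0.45 and the small one of -0.48 in this line. The sets of low, middle and high GC content had medians of -0.26, -0.46 and -0.66, against 0.37, -0.07 and -0.27 for all genes of the same ranges. By library, the members' median difference from the control mean was -0.37, -0.48 and -0.46 in overexpressing libraries, against -0.23, 0.30 and -0.04 in controls, so control replicate 2 was the highest library of the line. Without control replicate 2 the members' median was -0.29 and 5 members passed, all lower. In that fit 3.12% of all genes were called lower and 5.14% higher. Of the other 5 lists none had a called gene in this comparison. Their medians were -0.70 for the ribosomal proteins with other symbols, -0.20 for assembly factors, 0.07 for translation factors, -0.15 for synthetases and 0.19 for transcription and RNA handling.

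The controls of the lines were compared as a baseline, as MKN45 over MKN28. Here 19 of the 78 members were higher, against 21.4% of 16088 genes, and 4 were lower, against 20.4% (41.8% of genes in either direction). The share of members higher was near that of all genes and the share lower was below it. The median log2 fold change was 0.31, against -0.04 for all genes, and it turned to -0.10 once the trends with length and GC content were removed, to -0.02 with the length trend alone removed and to -0.02 without MKN45 control replicate 2. With the replicate number as a block, 27 members were higher, against 27.1% of genes, and 12 lower, against 28.5%. Line and any difference in handling cannot be told apart, and these libraries are also the controls of the comparisons above.

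MRPS24 was highest among the called members, with 117, 214.5 and 181 CPM in MKN45 controls, against 43.3, 71.5 and 45.8 in MKN28 controls (log2 fold change 1.67 ± 0.35, adjusted p = 0.00228). MRPS17, a small-subunit protein with a bacterial counterpart, had 36.1, 56.5 and 52.4 CPM in MKN45 controls, against 12.4, 14.2 and 19.4 in MKN28 controls (log2 fold change 1.66 ± 0.35, adjusted p = 0.00239). Both share exons with a neighbour on the same strand. MRPL36 had 39.7, 21.0 and 42.9 CPM in MKN45 controls, against 6.90, 17.5 and 12.9 in MKN28 controls (log2 fold change 1.47 ± 0.43, adjusted p = 0.0158). MRPL21 had 102, 167 and 104 CPM in MKN45 controls, against 36.7, 64.2 and 38.9 in MKN28 controls (log2 fold change 1.41 ± 0.36, adjusted p = 0.00705). No library of one line overlapped those of the other in these 4 genes; MRPL36 lost its call in 3 of 16 alternatives (adjusted p up to 0.084).

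The 4 lower members were all of the large subunit. MRPL49 had 23.4, 38.5 and 30.0 CPM in MKN45 controls, against 112, 116 and 102 in MKN28 controls (log2 fold change -1.84 ± 0.32, adjusted p = 0.000627). MRPL39, a mitochondrial addition, had 10.7, 7.26 and 10.9 CPM in MKN45 controls, against 34.5, 26.4 and 40.2 in MKN28 controls (log2 fold change -1.81 ± 0.36, adjusted p = 0.00155). Every MKN28 library lay above every MKN45 library in both genes. MRPL34 had 16.3, 6.56 and 19.7 CPM in MKN45 controls, against 26.8, 53.9 and 26.8 in MKN28 controls (log2 fold change -1.33 ± 0.46, adjusted p = 0.0341), a call lost in 6 of 16 alternatives with an adjusted p of up to 0.179. MRPL15 had 27.8, 38.9 and 30.4 CPM in MKN45 controls, against 73.3, 73.0 and 78 in MKN28 controls (log2 fold change -1.21 ± 0.31, adjusted p = 0.00764). In the fit of all 12 libraries the calls of MRPL15 (adjusted p = 0.162) and MRPL49 (adjusted p = 0.0642) were lost.

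Whether higher ZNF165 was followed by a different change in each line was tested in a fit of all 12 libraries, as overexpression over control in MKN45 minus control over knockdown in MKN28. A positive value means that the change with more ZNF165 was higher in MKN45 than in MKN28. Only MKN28 had the knockdown and only MKN45 the overexpression, so line and kind of manipulation cannot be told apart in this difference. Of the members 19 had a positive and 1 a negative difference past the threshold, against 8.09% and 9.38% of 17266 genes, with a median of 1.12 for the members and -0.20 for all genes. Of the 19, 13 were of the large and 6 of the small subunit, and 13 were in the set of highest GC content and none in the lowest. After removal of each library's length and GC trend 32 were positive, against 15% of genes, and none negative, against 12.4%. With library totals alone 6 were positive, against 3.57%, and 2 negative, against 14.5%. Without MKN28 control replicate 1 or 3, MKN45 control replicate 1 or overexpression replicate 1, 3 were positive in each case, near the 2.67% to 3.82% of all genes. Without knockdown replicate 1, 38 were positive, against 18% of genes, and 19 negative, against 28%.

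MRPL54, with 3.86 ± 0.78 (adjusted p = 0.00821), and MRPL41, with 3.57 ± 0.76 (adjusted p = 0.00979), had the largest differences, followed by MRPL49 with 3.51 ± 1.04 (adjusted p = 0.0339) and MRPL55 with 3.00 ± 0.70 (adjusted p = 0.0142). MRPL54, MRPL41 and MRPL55 rose in the knockdown, and in the overexpression their log2 fold changes, of which none passed, were -1.04, -0.43 and -0.62. MRPL49 had a positive log2 fold change both in the knockdown and in the overexpression. MRPS27 had the single negative difference, -1.49 ± 0.46 (adjusted p = 0.0394). The smallest positive differences that passed were those of MRPS7 at 1.41 ± 0.44 (adjusted p = 0.0398), MRPS21 at 1.52 ± 0.46 (adjusted p = 0.0369) and MRPL20 at 1.75 ± 0.47 (adjusted p = 0.0239). The calls of MRPL49, MRPS27, MRPS7, MRPS21 and MRPL20 were lost in 12, 16, 12, 12 and 11 of 22 alternatives. Those of MRPL54, MRPL41 and MRPL55 held in 21 of 22 and were lost without both knockdown replicates 2 and 3, with adjusted p-values of 0.0631, 0.0877 and 0.134.

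MRPS7, MRPS21 and MRPL20 all correspond to bacterial proteins. MRPS7, a protein of the small-subunit head, had 139, 156 and 189 CPM in knockdown libraries, against 44.6, 52.0 and 51.3 in MKN28 controls. It had 62.5, 52.2 and 48.5 CPM in overexpressing libraries, against 58.8, 85.0 and 63.8 in MKN45 controls. The knockdown libraries stood well clear of their controls and the overexpressing ones overlapped theirs. MRPS21 had 76.6, 76.5 and 89.5 CPM in knockdown libraries, against 18.8, 23.6 and 21.6 in MKN28 controls. MRPL20, a counterpart of a bacterial assembly protein, had 94.6, 127 and 129 CPM in knockdown libraries, against 24.9, 30.8 and 30.0 in MKN28 controls. Every knockdown library lay above every MKN28 control in both, while their overexpressing and MKN45 control libraries overlapped.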

How the data were processed

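RNA-seq read counts per gene were analysed as deposited, whole numbers that the authors had not normalised, per the values in the table. HISAT2 and StringTie are named in the submitters' processing notes, while the sources used here give no version, genome build, annotation, counting step or strand. Gene symbols came from a reference list of gene names matched by gene identifier, or from GENCODE 29 where that list had none. Gene type, coordinates, transcript length and GC content (medians over protein-coding transcripts) came from GENCODE 29 (GRCh38), and promoter windows from RefSeq (GRCh38.p14). Members and lists were chosen with earlier results of these data known. Groups and replicate numbers came from the labels, with 3 libraries in each of 4 groups. Totals ran from 12075813 to 19548445 counts, and 3 counts in a library are 0.153 to 0.248 CPM, counts scaled to library size, which covers counting error only.

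Each comparison was fitted on its own 6 libraries with edgeR 4.0.16 (R 4.3.3, limma 3.58.1): TMM factors, genes kept by a minimum count of 10 and a minimum total of 15, the quasi-likelihood test, and Benjamini-Hochberg adjustment over all genes tested with a threshold of 0.05. The difference between lines used all 12 libraries. A standard error is the absolute log2 fold change divided by the square root of F. Trends with length and GC content were removed through offsets from a spline with 5 degrees of freedom in each library, and log2 values per library used a pseudocount of 0.5 CPM. Alternatives were DESeq2 1.42.0, other scaling, no filter, a replicate block, a joint fit and leaving out libraries. Named genes were the 4 largest changes and the 4 smallest that passed in each comparison (in the overexpression the extremes), the 3 most abundant members and members with a known place or role; others were chosen after their values were seen. In the comparison of controls, deviations of same-numbered libraries correlated at 0.21, 0.439 and 0.243. MKN45 control replicate 1 correlated about as well, at 0.218, with MKN28 control replicate 3. The main fit of the controls used no pairing, and the replicate block was an alternative. On simulated counts for the knockdown comparison the fit was tested before use.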

Additional observations from a re-analysis of the deposited data

Results flagged for a closer look

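Of the mitochondrial ribosomal protein genes, 20 passed the test for a difference between the lines in the change that went with more ZNF165 (overexpression over control in MKN45 minus control over knockdown in MKN28, edgeR quasi-likelihood test), 19 of them positive, against 8.09% of all genes, and 1 negative, against 9.38%. Among those named, the differences on the log2 scale were 3.86 for MRPL54, 3.57 for MRPL41, 3.51 for MRPL49, 3.00 for MRPL55, 1.75 for MRPL20, 1.52 for MRPS21 and 1.41 for MRPS7. MRPS27 had the single negative difference, -1.49. Line and kind of manipulation (knockdown or overexpression) cannot be told apart in these differences. Without knockdown replicate 1, 38 differences were positive, against 18% of genes, and 19 negative, against 28%.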

How the results depend on the processing

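Limits come first from the libraries. When 1 library was left out, the knockdown gave 18 to 49 members higher, against 6.67% to 28.3% of genes. It gave 0 to 15 lower, against 10.6% to 37.5%. In these fits 2642 to 10378 genes were called, with a members' median of 1.45 to 1.71 and a ZNF165 log2 fold change of -1.63 to -1.23. The overexpression gave 0 higher, against 0.00621% to 5.14% of genes, and 0 to 5 lower, against 0% to 3.12%. It had 1 to 1338 genes called, a median of -0.61 to -0.29 and 2.88 to 3.45 for ZNF165. The comparison of controls gave 7 to 24 higher, against 16.5% to 24.4% of genes, and 3 to 7 lower, against 14.1% to 20.2%. It had 5085 to 7499 genes called, a median of -0.018 to 0.49 and -0.42 to 0.11 for ZNF165. The difference between lines gave 3 to 38 higher, against 2.67% to 18% of genes, and 0 to 19 lower, against 3.81% to 28%. It had 1163 to 8210 genes called, a median of 0.94 to 1.26 and 1.46 to 1.92 for ZNF165. The median of the control comparison turned to -0.018 without MKN45 control replicate 2, and ZNF165 turned to 0.03 without MKN28 control replicate 3 and 0.11 without MKN45 control replicate 1.

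With library totals alone the knockdown had 24 members higher, against 8.77% of genes, and a median of 0.87, and the overexpression a median of -0.34. The control comparison had 9 lower, against 22% of genes. The difference between lines had 6 higher, against 3.57%, and 2 lower, against 14.5%, with a median of 0.41 and 0.98 for ZNF165 (adjusted p = 0.262). Without the filter no member was lower in the knockdown, against 13.9% of genes, and ZNF165 had -1.54 there (adjusted p = 0.0703). In the overexpression 1 was lower among 722 genes called, against 0.882% of genes lower. The difference between lines had 0 lower, against 7.74%, and 1.56 for ZNF165 (adjusted p = 0.127). DESeq2 gave 8 lower in the overexpression, against 5.03% of genes lower, with 1834 genes called. In the difference between lines it gave 33 higher, against 13.9%, with 4730 genes called. One fit of all 12 libraries gave 3 genes called in the overexpression. In the control comparison it gave 11 members higher, against 18.9% of genes, and 1 lower, against 16.3%. Upper-quartile factors turned ZNF165 to 0.044 between controls (adjusted p = 0.94).

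With the length and GC trend removed no member was lower in the knockdown, against 19.9% of genes, the median was 1.22 and ZNF165 had -0.38 (adjusted p = 0.467). The overexpression then had 11 lower, against 4.55% of genes, with 1370 genes called. The control comparison had 15 lower, against 31.2% of genes, with a median of -0.10. The difference between lines had 32 higher, against 15%, and 0 lower, against 12.4%, with 4712 genes called. The GC trend alone was removed in an alternative chosen after seeing the data. The knockdown then had 63 members higher, against 28.5% of genes, and 0 lower, against 23.2%. Its median was 1.62 for the members and 0.11 for all genes, and ZNF165 had -0.51 (adjusted p = 0.298). The overexpression had 16 lower, against 5.96%, with 1741 genes called and a median of -0.52. Between controls 11 were lower, against 31.2%. The difference between lines had 37 higher, against 16.1%, and 0 lower, against 14.3%, with 5212 genes called. The length trend alone, also chosen after seeing the data, gave ZNF165 -1.02 in the knockdown (adjusted p = 0.13). Between controls it gave 9 higher, against 19% of genes, 11 lower, against 24.2%, and a median of -0.016. Without both knockdown libraries described as ZNF166 and ZNF167, 1 knockdown library is left and is assumed to vary like the other groups. Counts of calls in this fit rest on that assumption, and no excess of members over all genes is read from them. The median of all genes in it was -0.15 for the knockdown and -0.19 for the difference between lines. The knockdown then had 31 members higher, 23 of them among the 43, 0 lower, 3352 genes called, a median of 1.25 and -1.09 for ZNF165 (adjusted p = 0.198), and the difference between lines 3 higher, 0 lower, 1217 genes and a median of 0.83.

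A replicate block gave 2 members lower in the knockdown, against 27.3% of genes, and ZNF165 -1.48 there (adjusted p = 0.0643). It gave 8 genes called in the overexpression and 12 members lower between controls, against 28.5% of genes. With the trend removed too it gave 0 lower, against 18.8% of genes, a median of 1.17 and ZNF165 -0.43 (adjusted p = 0.464) in the knockdown. Between controls it gave 19 lower, against 33.1%, and a median of -0.07. In the difference between lines it gave 33 higher, against 14.8%, and 0 lower, against 11.7%, with 4534 genes called. Same-numbered libraries correlated at 0.232, 0.34 and -0.272 in MKN28 and at -0.055, -0.049 and 0.051 in MKN45, so within a line the numbers were not taken as pairing them, and not every library correlated best with its own number. MRPS36 turned positive in the knockdown with the trend removed (0.42), with block and trend (0.39), with the GC trend alone removed (1.04) and without both described libraries (0.65), where MRPL49 turned to -0.46. The causes were not tested, and depth was no limit to detecting any member.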
